A study of Rattus norvegicus with 9 samples.

Results

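The proteasome is the large protease that degrades ubiquitin-tagged proteins. Its genes were followed in islets of the pancreas from adult Wistar males kept for 30 days on standard chow or on a cafeteria diet of palatable, fat-rich food. Members were all genes with a probe set, the group of short probes that reads 1 transcript, annotated with exactly 1 symbol starting with Psma, Psmb, Psmc, Psmd, Psme, Psmf or Psmg. That rule found 46 of 14217 named genes, read by 60 of 31042 probe sets. Where a gene had several, the brightest by mean log2 signal over the arrays was used, and all 3 of Psmd14 are given. Psmc3ip and Psme3ip1 match by their letters but encode partner proteins and not subunits, which leaves 44 genes in 7 classes. Psma8, the thymus form Psmb11, Psmb6 and Psme3 have no probe set with a single symbol here, and the probe sets of the last 2 carry several symbols, so that no value is given for them.

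The study compared the diets on an Affymetrix Rat Genome 230 2.0 array with 1 animal sample per array, 4 standard (8% of calories as fat) and 5 cafeteria (66%). The rats were 7 weeks old, caged singly, and their islets were obtained by collagenase digestion and hand-picking; the labels name each sample as an independent biological replicate. The study's text counts 5 standard samples, where the sample titles name 4, and all 9 arrays were used. Groups follow the sample titles, source names and descriptions. A separate diet entry in the labels is reversed for all 9. By that entry 5 arrays would be standard and 4 cafeteria, and each fold given here would change sign. Which of the labels is right could not be checked here.

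Proteasomes have a core of 4 stacked rings. The outer alpha rings (Psma genes) gate entry, and the inner beta rings (Psmb genes) hold the proteolytic sites. A cap on the core holds ATPases (Psmc) that unfold the substrate and other subunits (Psmd) that bind ubiquitin and cut it off. Interferon and immune cells bring in the immunoproteasome, in which Psmb8, Psmb9 and Psmb10 take the places of Psmb5, Psmb6 and Psmb7, and the activator ring of Psme1 and Psme2. Islet beta cells make large amounts of secreted protein, and proteins that fail to fold in the endoplasmic reticulum are returned to the cytosol for the proteasome to degrade.

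The promoters were searched for the letters of a pair of known controls. The transcription factor Nfe2l1 raises subunit genes through antioxidant response elements, and interferon regulatory factors act through interferon-stimulated response elements. RefSeq promoter windows (GRCr8, 250 bases before to 50 after the start) were found for 40 of the 44 genes. On either strand, the core TGACNNNGC lay in 7 of 40 windows (17.5%) and in 12.1% of all 33469 windows, the interferon-stimulated element in 7 of 40 (17.5%) against 3.92%, and the NF-Y box CCAAT in 20 of 40 windows against 37.5%. The interferon letters were in 2 of 3 immunoproteasome windows, Psmb8 and Psmb10. Shown are all antioxidant cores of the 44 genes that lie before the start, and the interferon matches before the start in the immunoproteasome and activator genes, which that factor family is known to control. Matched letters are in capitals, read along the gene's strand. Psmb10 and Psme2 hold the interferon letters. Psma3, Psmb2, Psmb5, Psmd1, Psmd9 and Psme4 hold the antioxidant core, on the opposite strand in Psma3, Psme4 and the first match of Psmd9, and the CCAAT of Psmb2 shares 1 base with its core. Not printed are cores after the start in Psmd1 and Psmd3, the interferon match of Psmb8, which runs across the start, and those of Psma4, Psmb3, Psmd7 and Psmg4.
Psmb10, chr19:50743346-50743375, minus strand: aagcaaaggcGAAAGTGAAAgagaagatgc
Psmb10, chr19:50743293-50743319, minus strand: agtggggggtGAAAGCGAAAgtaggaa
Psme2, chr15:33052785-33052814, minus strand: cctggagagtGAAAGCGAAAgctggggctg
Psma3, chr6:95219727-95219748, plus strand: tctgtggcctGCCGGGTCAgca
Psmb2, chr5:144254980-144255008, plus strand: cccgcgccaaTGACCGGGCggtcgcatat
Psmb5, chr15:32047421-32047449, minus strand: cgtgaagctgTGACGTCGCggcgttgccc
Psmd1, chr9:94157796-94157824, plus strand: accagatctaTGACCTCGCgagaattata
Psmd9, chr12:39018370-39018398, minus strand: acttagctctGCCGGGTCAtctgaaaacc
Psmd9, chr12:39018323-39018351, minus strand: gagtttccggTGACCTCGCcccacctcca
Psme4, chr14:108706578-108706606, plus strand: ggagaaagccGCTGGGTCAcctcctcgcc
These are letter matches in single windows and say nothing of binding in islets.

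Values are signals on a linear scale, and folds are log2 differences, cafeteria minus standard, of signal + 16. All 44 genes passed the filter on low signals, which kept 18625 probe sets. Median signals ran from 147.0 to 167 across arrays, and precision is limited by how few arrays there are. Signals of different probe sets are not read as relative amounts of transcript. The median within-group SD was 0.16 on the log2 scale over the 44 genes and 0.26 over all probe sets tested. The probe sets of the 44 genes were also brighter, with a median signal of 1846 against 459. Immunoproteasome genes had the widest spread of the classes, with a median SD of 0.39, and the lowest median signal, 384. The part of brightness in these spreads was not tested.

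No proteasome gene passed limma's test adjusted over all probe sets (lowest adjusted p = 0.839), nor did any other probe set, a background of 0%. Of the 44 genes, 30 had a positive fold (68.2%), against 48.1% of all probe sets and 49.6% of all genes, and the median fold was 0.05, against -0.01 over all probe sets. At an unadjusted p under 0.05 limma gave 2 genes higher (4.55%), Psmd14 and Psmg2, where the background is 3.01% of probe sets, and none lower, where it is 2.79%. Over both directions the background is 5.8%. A log2 fold of 0.3 or more was seen for the same 2 genes, Psmd14 and Psmg2, and for 6.38% of all probe sets. The groups did not overlap for 2 genes, Psmg2 and Psmd6, both higher in cafeteria islets (4.55%, against a background of 0.999%). None was lower without overlap, where the background is 0.762%, or 1.76% over both directions. The count at an unadjusted p under 0.05 reached 6 when either standard replicate 1 or cafeteria replicate 1 was left out (13.6%, where the background was then 8.99% and 8.89%). It was 1, Psmg2, when standard replicate 2 or standard replicate 3 was left out (2.27%, against 4.03% and 3.82%). The plot of folds by class shows where the positive and negative values lie.

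**Figure D1:**
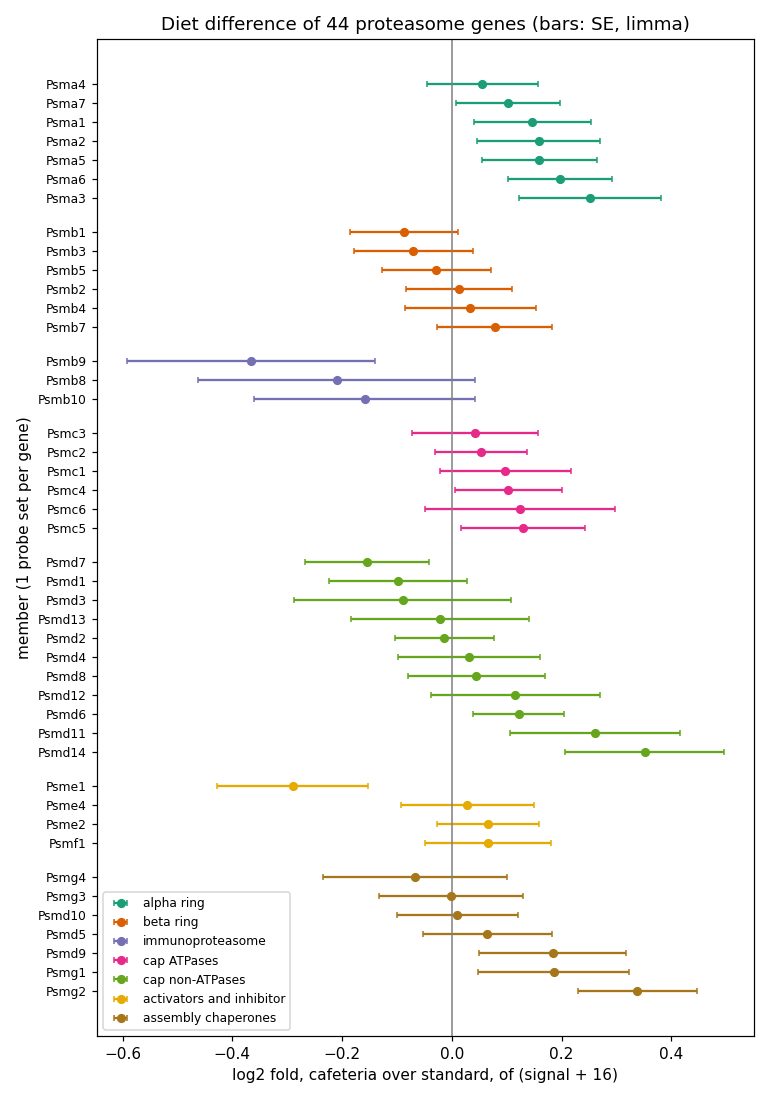
Log2 fold of cafeteria over standard for the 44 proteasome genes, 1 probe set each, grouped by class; points are limma estimates from 4 standard and 5 cafeteria arrays and bars are standard errors. The 7 alpha ring genes and the 6 cap ATPases lie to the right of 0, the 3 immunoproteasome genes to the left, and no gene passed the adjusted test.

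The alpha ring had a positive fold for 7 of 7 genes, with a median of 0.16 and a range from 0.06 (Psma4) to 0.25 (Psma3). Psma6 gave signals of 7186, 6867, 6024 and 6379.5 on standard replicates 1 to 4 and of 6774, 7488, 8309, 7340.3 and 8041 on cafeteria replicates 1 to 5. Cafeteria replicates 2 to 5 lay above all standard arrays and replicate 1 lay within their range. Its fold was 0.20 ± 0.09 (SE), with an exact two-sided permutation p of 0.0476, not adjusted over genes, and a limma adjusted p of 0.839. Psma3 gave 1163, 1011, 1113 and 1174 on the standard arrays and 1217, 1064, 1550.5, 1323 and 1558 on the cafeteria arrays. Here 4 of 5 cafeteria arrays were above the standard range, and the fold was 0.25 ± 0.13 (exact permutation p = 0.103). The other alpha genes had 0.16 (Psma5), 0.16 (Psma2), 0.15 (Psma1) and 0.10 (Psma7). Psma8, the testis form of Psma7, was not read. The sign of each of the 7 was the same in 21 of 21 alternative settings, though the class median fell to 0.10 without standard replicate 4.

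The constitutive beta ring had no common sign: 3 of its 6 measured genes were positive and 3 negative, with a median of -0.01 and a range from -0.09 to 0.08. Psmb5, which carries the chymotrypsin-like site, gave 3767, 4639, 4702 and 4748 on the standard arrays and 4631, 4216, 4003, 4320.3 and 4654 on the cafeteria arrays. Standard replicate 1 was the lowest of all 9, the groups overlapped, and the fold of -0.03 ± 0.10 had a 95% interval from -0.24 to 0.19. Psmb7, the trypsin-like subunit, gave 2873, 2625, 2499 and 2811 against 2889, 3008, 3199.7, 2821 and 2392. Its cafeteria arrays held both the highest and the lowest value, and the fold was 0.08 ± 0.10. Psmb1, a subunit with no active site, gave 4748, 4903, 3864 and 4345 against 4164, 4288, 4018, 3899 and 4580.4. The groups overlapped over most of their range and the fold was -0.09 ± 0.10. The others had -0.07 (Psmb3), 0.01 (Psmb2) and 0.03 (Psmb4). A difference between the alpha and beta rings was not tested.

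All 3 immunoproteasome genes had negative folds, with a median of -0.21, and each overlapped between diets. Psmb9 gave signals of 363, 449, 511 and 409.6 on the standard arrays and of 479.7, 326, 184, 385 and 351 on the cafeteria arrays. Cafeteria replicate 3 was the lowest, and cafeteria replicate 1 lay above 3 of the 4 standard arrays. The fold was -0.37 ± 0.23 (SE; exact permutation p = 0.198, limma adjusted p = 0.859). Psmb8, the counterpart of Psmb5, gave 290.1, 323, 439.8 and 435 against 263, 505, 200.01, 443 and 258. The 3 lowest arrays were cafeteria replicates 3, 5 and 1, but cafeteria replicate 2 was the highest of all. Psmb8 had a fold of -0.21 ± 0.25 with a 95% interval from -0.76 to 0.34. Psmb10 gave 537, 458, 452 and 390.1 against 319, 567, 276, 456 and 485, again with cafeteria replicate 2 highest and replicate 3 lowest, and a fold of -0.16 ± 0.20. Without cafeteria replicate 3 the folds were -0.17 (Psmb9), -0.06 (Psmb8) and -0.03 (Psmb10), and without that array and standard replicates 1 and 3 Psmb10 had 0.08.

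Psme1 and Psme2, which form a joint activator ring and are neighbours in RefSeq's gene order with only Emc9 between them, had folds of opposite sign. Psme1 gave 2507, 2939, 3174 and 2471 on the standard arrays and 2848, 2324, 1959, 2443 and 1827 on the cafeteria arrays. Of the cafeteria arrays, 4 lay below all standard arrays and replicate 1 lay within their range. The fold was -0.29 ± 0.14 (exact permutation p = 0.0873, limma adjusted p = 0.839), and it stayed between -0.37 and -0.21 in 21 alternatives. Psme2 gave 1694, 1591, 1474 and 1641 against 1660.1, 1651, 1749.5, 1702 and 1605, a narrow range with overlap and a fold of 0.07 ± 0.09. Whether the pair differ from each other in their response was not tested. Psme4, a single-chain activator, had 0.03 in the chosen probe set and 0.09 and -0.01 in the other 2, and Psmf1, an inhibitor of the core, 0.07. The median of these 4 genes was 0.05, and -0.01 without standard replicate 3.

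**Figure D2:**
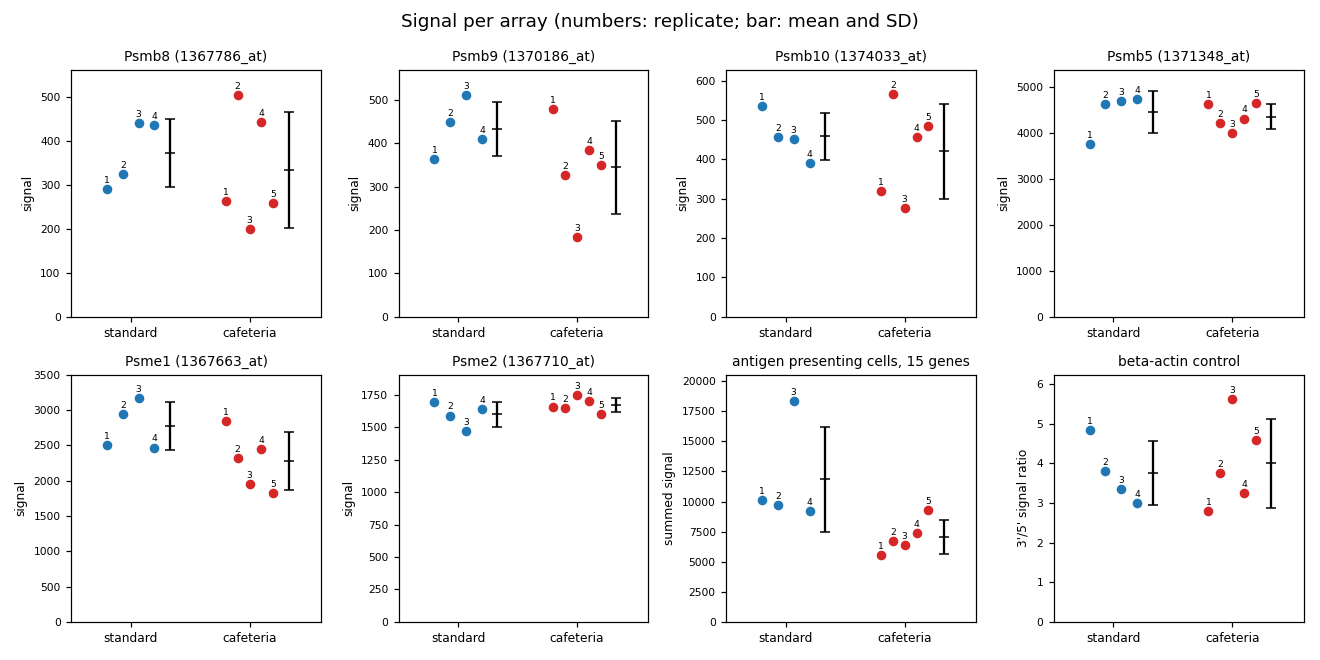
Signals of the immunoproteasome genes Psmb8, Psmb9 and Psmb10, of Psmb5, and of the activator genes Psme1 and Psme2 on each array, with the summed signal of 15 antigen presenting cell genes and the beta-actin 3'/5' signal ratio. Points are arrays numbered by replicate and bars are the mean and SD; cafeteria replicate 3 is lowest for Psmb8 (200.01), Psmb9 (184) and Psmb10 (276), and standard replicate 3 holds the highest sum of antigen presenting cell genes (18364).

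Genes of immune cells and of interferon responses were read beside these. Over all genes 49.6% of folds were positive. Of 15 antigen presenting cell genes, 13 passed the filter and 13 of 13 had a negative fold (median -0.59). At an unadjusted p under 0.05 limma gave 7 of the 13 lower, where the background is 2.79%, and none passed the adjusted test. The 13 were uneven, from -0.98 (Ptprc) to -0.004 (Cd68). Besides Cd68, those not among the 7 were C1qa (-0.10), C1qb (-0.14), Tyrobp (-0.20), Csf1r (-0.30) and RT1-Bb (-0.53). C1qc and Lyz2, which were among them, had -0.59 and -0.60. Cd74, the class II invariant chain, had -0.95 ± 0.22 with no overlap between diets (exact permutation p = 0.0079, limma adjusted p = 0.839). Their summed signal ranged from 9194 to 18364 on standard arrays and from 5555 to 9326 on cafeteria arrays. The 18364 was standard replicate 3, and the other standard arrays had 9194 to 10100. None of the 15 was at 0 on all arrays, and 2, Cd163 and Aif1, were under the filter. The 9 lymphocyte genes on the array summed to 738 to 3636 on standard and 538 to 839.6 on cafeteria arrays. The 3636 was standard replicate 3, and the other standard arrays had 738 to 1114. Of the 9 genes, 6, including the T cell markers Cd3d, Cd3e and Cd3g, were under the filter. The 3 tested were negative, and 1, Coro1a (-1.55 ± 0.49), was lower at an unadjusted limma p under 0.05, where the background is 2.79%. Coro1a gave 1111 of the 3636, and whether its signal came from lymphocytes was not tested. In whole islets, fewer immune cells and less RNA per cell cannot be told apart. The part of these cells in the immunoproteasome values was not tested. Of 19 class I presentation and interferon genes, 16 were named and 12 tested, of which 3 had a positive and 9 a negative fold, with a median of -0.12. Their smallest p-values belonged to the chemokine Cxcl10 (-0.64 ± 0.24), Gbp2, an interferon-induced GTPase (-0.44 ± 0.25), the transcription factor Irf1 (-0.24 ± 0.14) and Tapbp of the peptide loading complex (0.32 ± 0.23). Tap1 lies between Psmb8 and Psmb9 in RefSeq's gene order and had -0.23 ± 0.20. None of the 12 passed limma's adjusted test, and 1, Cxcl10, was lower at an unadjusted p under 0.05, where the background is 2.79%.

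The cap ATPases, which form the ring that unfolds the substrate, had positive folds for 6 of 6 genes, with a median of 0.10 and a range from 0.04 to 0.13. Psmc5 gave 3089, 2491, 2144 and 2897 on the standard arrays and 2769, 2788, 3018, 2901 and 2919.9 on the cafeteria arrays. The cafeteria values sat close together inside the wider standard range, and the fold was 0.13 ± 0.11. Without standard replicate 3 it was 0.03, and without standard replicate 1 it was 0.21. Psmc4 gave 2266, 2034, 1879.5 and 1952 against 2189, 2179, 1972, 2283 and 2290.1, with overlap and a fold of 0.10 ± 0.10. Psmc1, Psmc2 and Psmc3 had 0.10, 0.05 and 0.04. The median of the 6 ATPases ranged from 0.04, with standard replicate 3 left out, to 0.16, with standard replicate 1 left out.

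Psmc6 is read by 3 probe sets, singled out after their values were seen. The brightest gave 2261, 1514, 1296 and 1251 on the standard arrays and 1404, 1507, 2066, 1634 and 1848 on the cafeteria arrays. Standard replicate 1 was the highest of all 9, and the fold was 0.12 ± 0.17. The second gave 801, 691, 762 and 669 against 861, 777, 1084, 845 and 1175, with 4 of 5 cafeteria arrays above the standard range. That fold was 0.35 ± 0.14, with an exact permutation p of 0.0397 and a limma adjusted p of 0.839. The dimmest gave 277, 190.2, 194 and 249 against 385, 236, 314, 286 and 274, with overlap and a fold of 0.37 ± 0.18. So the choice of probe set moved the fold of Psmc6 from 0.12 to 0.37. Without standard replicate 1 the brightest had 0.31, and 0.03 without standard replicate 4.

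Among the other cap subunits 6 of 11 had a positive and 5 a negative fold, with a median of 0.03. The range from -0.15 to 0.35 was wider than in the rings of the core. At its upper end was Psmd14, the deubiquitinase that removes ubiquitin chains from bound substrates. Its brightest probe set gave signals of 2456, 1944, 1702 and 1805 on the standard arrays and of 2256, 2225, 2973, 2146 and 3056 on the cafeteria arrays. Standard replicate 1 lay above 3 of the 5 cafeteria arrays, and cafeteria replicates 3 and 5 stood above all others. The fold was 0.35 ± 0.14 (SE), with an exact permutation p of 0.0794 and a limma adjusted p of 0.839.

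The second probe set of Psmd14, a dim one, separated the diets. It gave 196, 159.7, 110.4 and 142 on the standard arrays and 266, 425, 398, 307 and 241 on the cafeteria arrays, with no overlap. Group means were 152 ± 35.6 (SD, n = 4) and 327 ± 80.9 (SD, n = 5), and the fold was 1.02 ± 0.21 with a 95% interval from 0.57 to 1.48. Its p was the sixth smallest of 18625, and its exact permutation p of 0.0079, not adjusted over genes, is the smallest that splits into 4 and 5 arrays can give. The limma adjusted p was 0.839, and between 0.273 and 1.00 over 20 alternatives, in which the fold lay between 0.85 and 1.14. The third probe set gave 797, 1125, 905 and 846 against 1093, 862, 1149, 911 and 967. There the groups overlapped over nearly their whole range, and the fold was 0.12 ± 0.13 (exact permutation p = 0.357). Without standard replicates 1 and 3 and cafeteria replicate 3 it turned to -0.03. All 3 probe sets were thus positive on all arrays together, from 0.12 to 1.02, and their positions on the transcript were not used here. RefSeq lists 1 pseudogene of Psmd14, and whether a probe set also reads it was not tested.

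**Figure D3:**
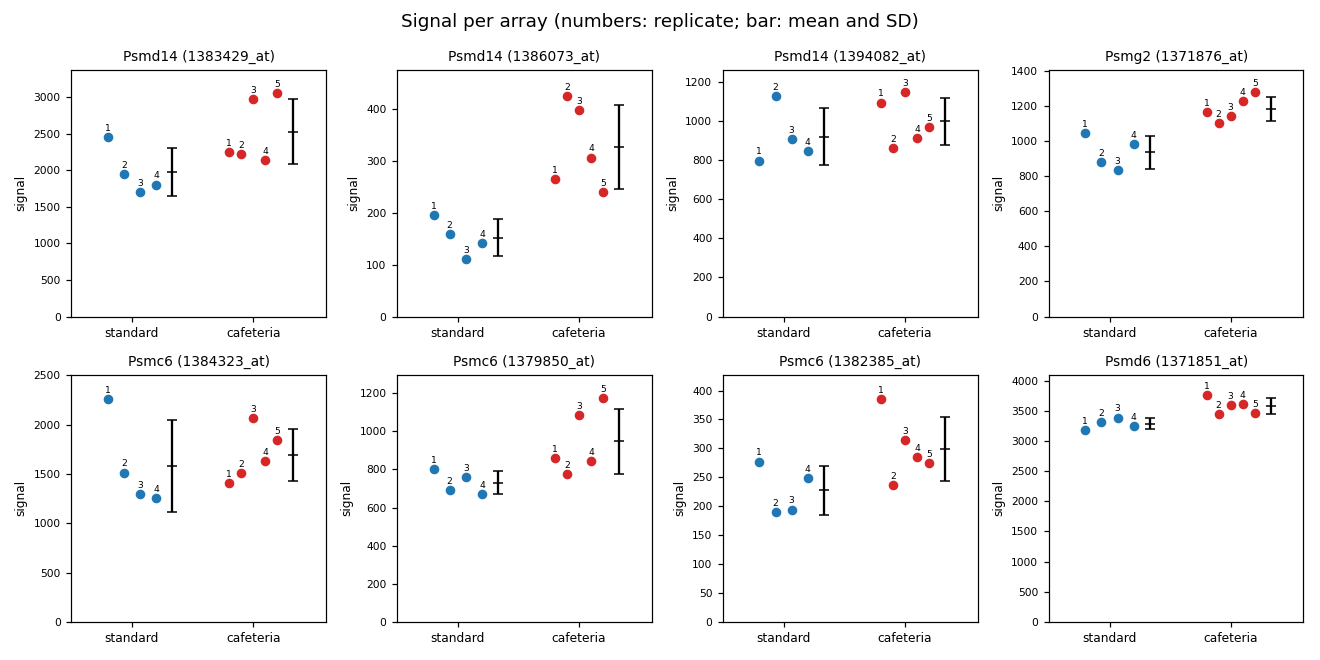
Signals of the 3 probe sets of Psmd14, the 3 of Psmc6, and of Psmg2 and Psmd6 on each array. Points are arrays numbered by replicate and bars are the mean and SD of 4 standard and 5 cafeteria arrays; the groups do not overlap for the second Psmd14 probe set, Psmg2 and Psmd6, and overlap in the other 5 panels.

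Psmd11, a scaffold subunit that joins cap and core, gave 6109, 3964, 4314 and 4890.2 on the standard arrays and 4621, 5141, 7368, 5248 and 6542 on the cafeteria arrays. Standard replicate 1 lay above 3 cafeteria arrays. Its fold was 0.26 ± 0.15, and 0.19 ± 0.12 in a second probe set, with 0.17 in the first without cafeteria replicate 3 or standard replicate 2. Psmd6, a lid subunit singled out after its values were seen, gave 3182, 3321, 3391 and 3248 against 3766, 3448, 3593, 3621 and 3460.4. All 5 cafeteria arrays were above all 4 standard arrays, by a small margin. The fold was only 0.12 ± 0.08, with an unadjusted limma p of 0.166 and a limma adjusted p of 0.859. The exact permutation p was 0.0079, not adjusted over genes. It restates a separation already seen when the gene was picked, and is no further evidence of a difference. The within-group SD of Psmd6, 0.05, was the lowest of the 44 genes.

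Psmd7, the partner with which Psmd14 pairs in the lid, had the lowest fold of the class, -0.15 ± 0.11, and -0.01 in its second probe set. The large scaffold subunits Psmd1 and Psmd2 had -0.10 and -0.01, and the ubiquitin receptor Psmd4 0.03. For the remaining lid subunits the folds were 0.12 (Psmd12), -0.09 (Psmd3), 0.04 (Psmd8) and -0.02 (Psmd13). The median of the 11 genes was 0.107 when standard replicate 1 was left out, and became -0.0048 when cafeteria replicate 1 was.

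Assembly chaperones guide the building of the rings and the cap and leave the finished complex. Their folds were positive for 5 of 7 genes, with a median of 0.07, which was -0.01 without cafeteria replicate 1. Psmg2, which with Psmg1 helps to build the alpha ring, gave 1043, 881, 834 and 981 on the standard arrays and 1163, 1104, 1141, 1227 and 1279 on the cafeteria arrays. The groups did not overlap. Means were 935 ± 94.7 (SD, n = 4) and 1183 ± 70.2 (SD, n = 5), and the fold was 0.34 ± 0.11 with a 95% interval from 0.10 to 0.57. The exact permutation p was 0.0079, not adjusted over genes, and the limma adjusted p was 0.839, with a lowest value of 0.380 over 21 alternatives. Its partner Psmg1 had 0.19 ± 0.14.

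Psmd9, a chaperone of the cap's base, gave 454, 512, 463 and 492 against 588, 607, 551, 585 and 427. Here 4 of 5 cafeteria arrays lay above the standard range and replicate 5 lay below it, and the fold was 0.18 ± 0.13. A second, dimmer probe set of Psmd9 overlapped between diets and had 0.002 ± 0.23. The other base chaperones had 0.07 (Psmd5) and 0.01 (Psmd10), and the second chaperone pair, Psmg3 and Psmg4, had -0.00 and -0.07.

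Array by array, high and low values of the 44 genes fell on both diets, but not evenly. Cafeteria replicates 1 and 2 held the lowest value of 0 of the 44 genes, against 11.8% and 7.97% of all probe sets. The median over genes of the log2 value, less each gene's mean over 9 arrays, ran from -0.14 to 0.03 on standard arrays and from -0.02 to 0.08 on cafeteria arrays. Standard replicate 3 held the lowest value of 14 of the 44 genes (31.8%), against 10.9% of all probe sets. The same array had the lowest summed signal of beta cell genes (118350.2). It also had the highest sums of antigen presenting cell genes (18364) and lymphocyte genes (3636). The part of these cells in its proteasome values was not tested. Cafeteria replicates 5 and 1 held the highest value of 10 and 9 of the 44 genes (22.7% and 20.5%), against 10.6% and 10.2%. Cafeteria replicate 3 held the highest of 6 and the lowest of 10, and it also holds more extremes than any other array over all probe sets (17.1% and 18.5%). The map of genes by array shows both patterns.

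**Figure D4:**
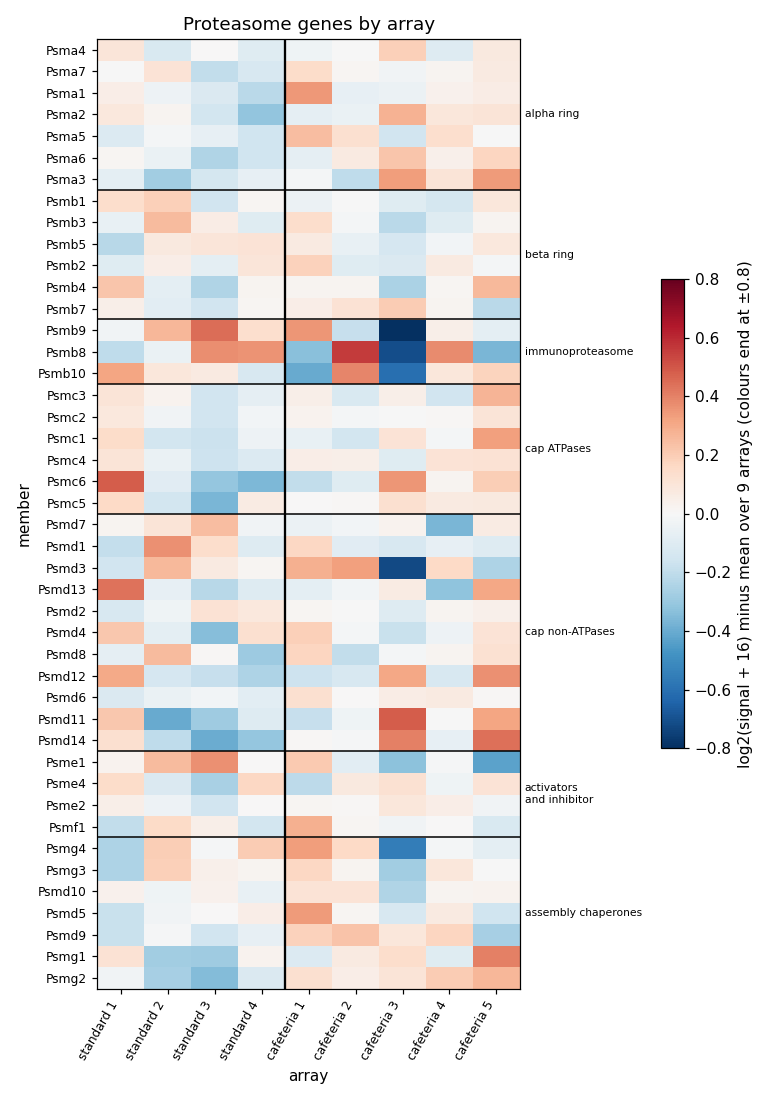
Each row is 1 of the 44 proteasome genes and each column 1 array; colour is log2(signal + 16) less the gene's mean over the 9 arrays, with black lines between classes and between diets. The immunoproteasome rows and Psmd3 are darkest blue on cafeteria replicate 3, and Psmd11, Psmd12 and Psmd14 are red on standard replicate 1 and cafeteria replicates 3 and 5.

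One of the array's measures of RNA quality, the beta-actin ratio, moved with some of these genes. The ratio of the beta-actin control probe sets at the 3' and 5' ends, which rises as RNA is degraded, was 4.84, 5.63 and 4.59 on standard replicate 1 and cafeteria replicates 3 and 5, and 2.79 to 3.82 on the other arrays. The same ratio of GAPDH did not set these 3 apart: it was 1.64, 1.53 and 1.62 on them and 1.29 to 1.596 on the others, with standard replicate 2 above cafeteria replicate 3. In 9 of the 44 genes (20.5%) these 3 arrays were the 3 highest, against 5.90% of all probe sets: Psma4, Psmc1, Psmc5, Psmc6, Psmd11, Psmd12, Psmd13, Psmd14 and Psmg1. In 4 genes, Psmd3, Psmd5, Psmg3 and Psmg4, they were the 3 lowest (9.09%, against 7.15%). With the log2 ratio as a covariate, chosen after seeing the data, the fold of Psmd14 was 0.31 ± 0.10 and that of its dim probe set 0.99 ± 0.20, and those of Psmg2, Psma6, Psmd11 and Psmb9 were 0.33, 0.18, 0.22 and -0.30. The brightest Psmc6 probe set then had 0.07. At an unadjusted p under 0.05 there were then 4 genes, Psma6, Psmd14, Psme1 and Psmg2 (9.09%, against 7.42% of all probe sets), and none passed limma's adjusted test (lowest adjusted p among them 0.638).

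Of 32 other genes of the pathway, which receive, prepare or deliver substrates or control the subunit genes, 25 were named and all 25 passed the filter. There 19 folds were positive (76.0%, against 49.6% of all genes) and 6 negative, with a median of 0.08. None passed limma's adjusted test or an unadjusted p of 0.05, where the background is 5.8% over both directions. The smallest p-values were those of Ubqln2, a shuttle that carries ubiquitinated proteins (0.19 ± 0.10), Txnl1, a thioredoxin bound to the cap (0.33 ± 0.17), Pomp, the chaperone of the beta rings (0.15 ± 0.09), and the ubiquitin receptor Adrm1 (-0.49 ± 0.32). Summed over the 25 genes, the signal was 75435 to 78700.3 on standard and 79883 to 90725 on cafeteria arrays, so that the groups did not overlap. This sum is weighted to the brightest genes. The median over the same genes of the log2 value less its mean over arrays did overlap, from -0.07 to -0.0015 on standard and from -0.01 to 0.14 on cafeteria arrays. Singly, 0 of the 25 genes separated the diets, where the background is 1.76% over both directions. Nfe2l1, the transcription factor of subunit genes, had -0.22 ± 0.25.

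RefSeq names 42 pseudogenes in the rat genome for 17 of the 44 genes, 8 of them of Psmb3 and 5 of Psma6. Whether probe sets read these pseudogenes was not tested. Beta cell genes, which mark the tissue named in the labels, were positive in 5 of 7 with a median of 0.09. For this and the next lists the background is 49.6% of all genes positive. The summed signal of the beta cell genes overlapped between diets, from 118350.2 to 168364 on standard and from 134978 to 180597 on cafeteria arrays. Acinar genes, which mark exocrine tissue carried over with islets, had a positive fold in 10 of 11 (median 0.49) and summed to 3696 to 9446 and 2829 to 10310.5. At an unadjusted p under 0.05 limma gave 2 acinar genes higher, Cela3b and Ctrb1 (18.2%, against 3.01% of probe sets), and 0 lower. Endothelial genes summed to 6988 to 8179 and 6530.0 to 7470, with 4 of 5 negative. Of these 5, 1, Esm1, was lower at an unadjusted limma p under 0.05, where the background is 2.79%. None of the beta cell, acinar or endothelial genes passed the adjusted test. The part of these cell types in the proteasome values was not tested.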

How the data were processed

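The 9 arrays each read 1 islet sample. Each deposited value is the intensity of 1 probe set, not on a log scale, and the submitters' processing notes credit it to MAS5 run by the authors, whose version and settings are not given here. Without 2% of probe sets at each end, each array's mean was 500.0, so no further scaling was applied. Without 57 control probe sets, 31042 remained. Gene names came from the platform annotation, and all 44 members matched a RefSeq gene (GRCr8) by identifier.

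A limma model (3.58.1, under R 4.3.3) with diet alone and an intensity trend was fitted to log2(signal + 16). The 40% of probe sets with the lowest mean log2 signal (signals under about 91.1) were left out, and p-values were adjusted by Benjamini-Hochberg over the 18625 kept. A call needed an adjusted p under 0.05. The fit was tested on simulated data. Single values were also tested by exact two-sided permutation over the splits into 4 and 5 arrays. Lists are described by counts and medians, with no test.

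Members and lists were chosen with earlier results of these data known. Named with every value were all Psmd14 probe sets, Psmb5, Psmb7 to Psmb10, Psme1, Psme2 and the 2 smallest p-values per class. Alternatives were other pseudocounts, normalisations, filters, variance models, array weights, probe set choices, each array or 3 arrays left out, and the replicate number as a block.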

Additional observations from a re-analysis of the deposited data

Results flagged for a closer look

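The Psmb5 signal of standard replicate 1, at 3767, stood apart from the other standard arrays, which lay between 4639 and 4748. It was the only one found in 42 groups of arrays checked for a single distant value. Chance gives such a value in about 1 in 20 groups, so 1 in 42 is no more than chance gives.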

How the results depend on the processing

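No proteasome gene passed limma's adjusted test in any of 23 alternatives, and the number with a positive fold, 30 of 44, lay between 26 and 37 (the latter of 53 when all probe sets were counted). Of the 44 genes, 26 kept their sign in all 21 fits, 21 of them positive and 5 negative. The count at an unadjusted p under 0.05, 2 as reported, was 5 with array weights (11.4%, against 9.78% of all probe sets), 4 with the beta-actin ratio as a covariate (9.09%, against 7.42%), 1 with no intensity trend (2.27%, against 5.61%), 4 over all 53 probe sets (7.55%, against 5.8%), and 1 to 6 with each array left out. With the replicate number as a block it was 1 (2.27%, against 3.12%); cafeteria replicate 5 has no partner and adds nothing to that fit. Deviations of same-numbered arrays had correlations from -0.38 to 0.03. These are few and have no reference spread, and whether the numbers mark a shared batch was not tested. With each array left out, the median of the cap subunits other than ATPases lay between -0.0048 and 0.107 and that of the activators and inhibitor between -0.013 and 0.053. The fold of Psmb5 turned to 0.012 with median centring and to 0.0021 and 0.0033 without cafeteria replicate 3 and standard replicate 4, and was -0.108 without standard replicate 1. Without standard replicates 1 and 3 and cafeteria replicate 3 the third Psmd14 probe set (-0.031) and Psmb10 (0.081) changed sign; the cause was not tested. With the 60th percentile filter the dim Psmd14 probe set was not tested.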
